A study of Homo sapiens with 6 samples.

Results

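Oxidative phosphorylation genes were followed in MM.1S, a human multiple myeloma cell line, after knockdown of PRKCN, a kinase gene listed under its current symbol PRKD3. Members were the rows of the count table that carry the name of a protein gene of the mitochondrial genome, or a nuclear name of complex I (NDUFA, NDUFB, NDUFC, NDUFS and NDUFV genes), complex II (SDHA to SDHD), complex III (UQCR genes and CYC1), complex IV (COX4 to COX8 genes) or complex V (ATP5F1, ATP5M and ATP5P genes). This rule reads gene names alone, and the set was picked with earlier results of these data known. It gave 95 members of 21850 genes listed, 82 of them nuclear and 13 mitochondrial, and 6 antisense or divergent transcripts with matching names were set apart. A further 7 RefSeq genes of these names, among them the tissue isoforms COX6A2, COX7A1, COX7B2 and COX8C, were not among the rows and were not analysed here. The shNT group held 3 libraries of cells labelled WT that had received a scramble hairpin (shscramble), and the shPRKCN group held 3 libraries of PRKCN knockdown cells that had received PRKCN shRNA, all on day 3 after infection. The labels do not state that replicates were separate cultures, so p-values measure the spread between these libraries, which may be technical.

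The complexes of the inner mitochondrial membrane pass electrons from NADH (complex I) and succinate (complex II) through complex III and cytochrome c to complex IV, where oxygen is reduced. Complex V, the ATP synthase, makes ATP from the proton gradient that complexes I, III and IV build. Most subunits are encoded in the nucleus and imported, while a small set of core subunits is encoded by mitochondrial DNA, so that complexes I, III, IV and V are assembled from products of both genomes and complex II from nuclear products alone.

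Total counts ran from 35625564 to 37730003 per library. The targeted gene PRKD3 fell from 1262 ± 41.7 CPM (counts scaled to the TMM library size; mean and SD of 3 libraries) to 518 ± 23.4 CPM on knockdown, 41.0% of its shNT level. The plasma cell markers SDC1 and JCHAIN were high in every library, at 871 CPM or more. On the same marker list, CD38 was at 33.2 to 38.7 CPM and CD27 at 0.403 CPM or less. The defining B cell, T cell, monocyte and stromal genes MS4A1, PAX5, CD3D, CD14, LYZ and COL1A1 were at 0.245 CPM or less. The plasma cell genes were not level between groups. IRF4 was at 610 to 634 CPM in shNT and 170 to 176 CPM in shPRKCN libraries and XBP1 at 894 to 932 CPM against 370 to 385 CPM. TNFRSF17 (134 to 140 CPM against 60.5 to 64.4 CPM) and SLAMF7 (422 to 429 CPM against 216 to 220 CPM) were also lower in shPRKCN libraries. PRDM1 and MZB1 were lower too, whereas SDC1 was higher (871 to 909 CPM against 989 to 1052 CPM). CD3E, the remaining T cell marker, was higher in the shPRKCN libraries (26.9 to 30.9 CPM against 10.3 to 11.2 CPM), and the erythroid gene HBB was lower (0.922 to 1.10 CPM against 2.18 to 3.87 CPM). The part of these shifts in the results below was not tested. In bulk RNA, fewer cells of a kind and less RNA per cell cannot be told apart.

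No member that was tested was called changed. A gene was called changed where its Benjamini-Hochberg adjusted p from edgeR (quasi-likelihood) was under 0.05, over the 13971 genes that passed a filter on low counts, and its log2 fold change exceeded 0.58 upwards or downwards. Of the 93 members tested, 0 were called higher and 0 lower, where 6.15% of all tested genes were called higher and 10.6% lower. COX4I2 and NDUFA4L2 had too few counts to be tested. By the adjusted p alone, 25 members were higher in shPRKCN cells and 12 lower. Together these were 39.8% of the members tested, against 54.2% of all genes tested (26.5% higher and 27.8% lower). The differences of the members were small. The median absolute log2 fold change of the members was 0.09 against 0.25 over all genes tested, and the median log2 fold change was 0.03 against 0.0012. The 95% confidence interval of the log2 fold change lay wholly inside ±0.58 for 91 of the 93 members, and for 59.7% of all genes. The exceptions, COX6B2 and ATP5F1E, had few counts. Members were also measured with a smaller error than most genes, with a median standard error of 0.041 on the log2 scale against 0.072.

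**Figure D1:**
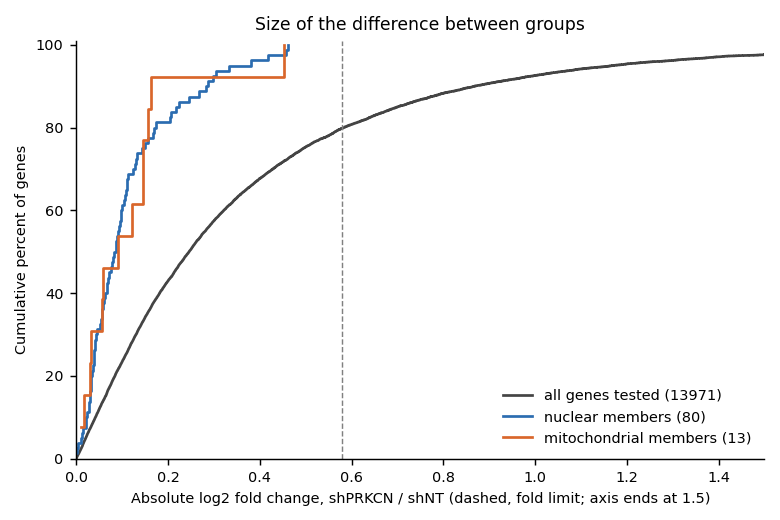
Cumulative percent of genes (vertical axis) by absolute log2 fold change between shPRKCN and shNT cells (horizontal axis) for all 13971 genes tested, the 80 nuclear members and the 13 mitochondrial members, with the fold limit of 0.58 as a dashed line. Both member curves reach 100% before the limit, whereas the curve of all genes continues past it.

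Among libraries, 29 of the 93 tested members had all 3 shPRKCN values above all 3 shNT values, and 14 had all 3 below. The same pattern held for 29% (above) and 29.8% (below) of all genes tested. The plot of log2 fold changes by complex shows members of both signs in each nuclear set except complex II.

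**Figure D2:**
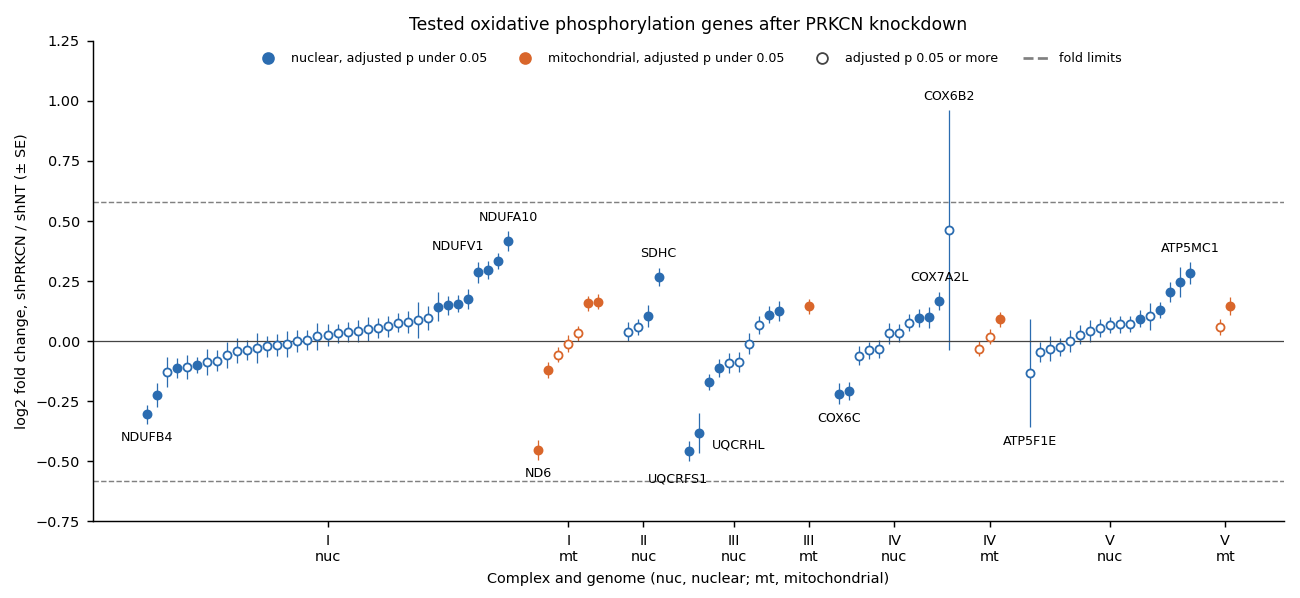
Log2 fold change, shPRKCN over shNT (vertical axis; bars, standard error), of the 93 tested members, arranged by complex and genome and then by value (blue, nuclear; orange, mitochondrial; filled, adjusted p under 0.05). Every point lies between the dashed fold limits of −0.58 and 0.58, and the bar of COX6B2, with 8 to 19 counts per library, crosses the upper one.

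Complex I is the entry point for electrons from NADH. Of its 37 nuclear genes tested, 8 were higher and 4 lower by the adjusted p, with a median log2 fold change of 0.03. NDUFA10, an accessory subunit, was the highest member past the test. Its levels were 91.7, 94.7 and 96.4 CPM in shNT libraries and 129, 126 and 123 CPM in shPRKCN libraries, so the groups did not overlap. The log2 fold change was 0.42 (standard error, SE, 0.040; Benjamini-Hochberg adjusted p = 2.9e-14, edgeR quasi-likelihood), an increase of 33.5%. NDUFV1, the core subunit that binds NADH and flavin, was at 320, 327 and 337 CPM in shNT libraries and at 415, 420 and 404 CPM in shPRKCN libraries. Its log2 fold change was 0.33 (SE 0.034), again without overlap. NDUFV3, an accessory protein beside NDUFV1, had a log2 fold change of 0.29 (SE 0.042). The other flavin-domain subunit, NDUFV2, went the other way, from 449 to 485 CPM in shNT to 430 to 438 CPM in shPRKCN libraries, a log2 fold change of −0.10 (SE 0.034). NDUFV2 shares 13077 bases of its locus with the antisense gene NDUFV2-AS1, which was itself called higher (43 to 56 counts against 75 to 114 counts; log2 fold change 0.92, SE 0.239), and whether strand was used in counting is not known.

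NDUFA4 was also among the higher members of the complex I names, although the protein is now assigned to complex IV. By its name it was counted with complex I throughout, also in the sums per complex. Its level was 151, 153 and 153 CPM in shNT libraries and 180, 194 and 188 CPM in shPRKCN libraries, a log2 fold change of 0.30 (SE 0.037). Its hypoxia-linked isoform NDUFA4L2 was near the counting floor, with 3, 5 and 7 counts in shNT libraries and 0, 0 and 2 counts in shPRKCN libraries. Every shNT value lay above every shPRKCN value, but these few counts were under the filter, and no fold change is given.

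Among the 11 membrane-arm NDUFB genes, 3 were lower and 2 higher. By the same adjusted p, 27.8% of all genes tested were lower and 26.5% higher. NDUFB4 had 158, 169 and 161 CPM in shNT and 126, 137 and 132 CPM in shPRKCN libraries, and its log2 fold change was −0.30 (SE 0.039, Benjamini-Hochberg adjusted p = 4.6e-10, edgeR quasi-likelihood). NDUFB3 had a log2 fold change of −0.22 (SE 0.049) and NDUFB8 of −0.11 (SE 0.042). In the same arm, NDUFB9 and NDUFB5 were higher, with log2 fold changes of 0.17 (SE 0.042) and 0.15 (SE 0.040). Of the 13 NDUFA genes tested, NDUFA10 and NDUFA4 passed and 11 did not. Genes of the same arm therefore carried fold changes of both signs.

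Complex II, succinate dehydrogenase, links the TCA cycle to the chain, and its 4 genes had positive log2 fold changes. SDHC, a membrane anchor, was at 156, 153 and 148 CPM in shNT and at 179, 190 and 182 CPM in shPRKCN libraries. The log2 fold change was 0.27 (SE 0.037, Benjamini-Hochberg adjusted p = 5.3e-09, edgeR quasi-likelihood). SDHB, the iron-sulfur subunit, passed narrowly at 0.11 (SE 0.045, edgeR adjusted p = 0.0441). The flavoprotein SDHA (0.06, SE 0.034) and the second anchor SDHD (0.04, SE 0.039) did not pass.

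Complex III held the largest decrease of any member. UQCRFS1 encodes the Rieske iron-sulfur protein, which hands electrons from ubiquinol to cytochrome c1, and lies on chromosome 19 from 29205320 to 29213151 in GRCh38.p14. Its levels were 102, 97.3 and 102 CPM in shNT libraries and 74.1, 75.7 and 70.1 CPM in shPRKCN libraries, with every knockdown value below every control value. It fell by 27.1%, a log2 fold change of −0.46 (SE 0.043, 95% confidence interval −0.54 to −0.37, Benjamini-Hochberg adjusted p = 1.3e-14, edgeR quasi-likelihood). The hinge protein gene UQCRH was also lower, at 298 to 306 CPM in shNT and 262 to 276 CPM in shPRKCN libraries (log2 fold change −0.17, SE 0.034). Its near-identical copy UQCRHL had a log2 fold change of −0.38 (SE 0.084) on 493 to 742 counts per library. Reads of this pair may be split between them by the counting, so neither value stands apart from the other. UQCRB, a small subunit next to cytochrome b, was also lower (−0.11, SE 0.039). In contrast, the core protein gene UQCRC2 (0.11, SE 0.036) and the cytochrome c1 gene CYC1 (0.12, SE 0.042) were higher. The remaining 4 of 10 genes did not pass, and the median log2 fold change of the complex was −0.09.

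Complex IV, cytochrome c oxidase, had 3 nuclear genes higher and 2 lower of 12 tested. COX6C was at 77.4, 80.2 and 79.5 CPM in shNT libraries and at 66.5, 68.4 and 68.9 CPM in shPRKCN libraries, a log2 fold change of −0.22 (SE 0.045). COX8A, the only listed COX8 gene, had a log2 fold change of −0.21 (SE 0.037), again without overlap between groups. COX7A2L, a factor that joins complexes III and IV into supercomplexes, was higher (146 to 154 CPM against 165 to 177 CPM; log2 fold change 0.17, SE 0.038), whereas its relative COX7A2 did not pass (−0.06, SE 0.040). COX5A (0.10) and COX6A1 (0.10) passed narrowly. The paired isoform genes COX5B (0.03), COX6B1 (0.03), COX7B (−0.03) and COX4I1 (0.08) did not pass. Of the tissue-restricted isoforms, COX4I2 had at most 1 count in any library and COX6B2 had 8 to 19 counts. MM.1S cells carried COX4 transcripts of the COX4I1 form in both groups.

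Complex V had 5 of its 17 nuclear genes higher (29.4%) and 0 lower by the adjusted p, against 26.5% and 27.8% of all genes. The median log2 fold change of the 17 was 0.07. ATP5MC1, which is 1 of 3 genes that encode the same mature c subunit of the proton-driven ring, lies on chromosome 17 from 48892787 to 48895871. Its FPKM (counts scaled by gene length and by the library total) were 96.2, 106 and 106 in shNT libraries and 126, 130 and 125 in shPRKCN libraries, and the log2 fold change was 0.28 (SE 0.046, Benjamini-Hochberg adjusted p = 2.6e-07, edgeR quasi-likelihood). ATP5MC3 was higher by 0.09 on the log2 scale (SE 0.035) and ATP5MC2 did not pass (−0.02, SE 0.039). Of the FPKM summed over the 3 genes, ATP5MC1 made up 40.6% to 42.5% in shNT and 45.2% to 46.2% in shPRKCN libraries. The share of ATP5MC2 was 24.0% to 24.8% against 21.2% to 22.03%, and that of ATP5MC3 was 33.2% to 34.9% against 32.1% to 32.8%. None of these shares overlapped between the groups. ATP5MC1 shares 3085 bases with the noncoding gene LOC105371814.

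The peripheral-stalk gene ATP5PB (0.20, SE 0.043), the membrane-subunit gene ATP5ME (0.25, SE 0.064) and the catalytic-head gene ATP5F1A (0.13, SE 0.033) were the other higher members of complex V. ATP5F1B, which encodes the catalytic beta subunit, was the most abundant nuclear member per gene length, at 539 ± 13.3 FPKM in shNT and 573 ± 9.81 FPKM in shPRKCN cells (SD, n = 3). It did not pass the test (log2 fold change 0.07, SE 0.033), although its shPRKCN values all lay above its shNT values. ATP5F1E, which encodes a further subunit of the same head, had only 59 to 92 counts per library, and its level of 0.606 FPKM in shNT cells was far below that of its partners. It overlaps TUBB1 by 1180 bases, and how the authors counted such reads is not given in the sources used here.

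**Figure D3:**
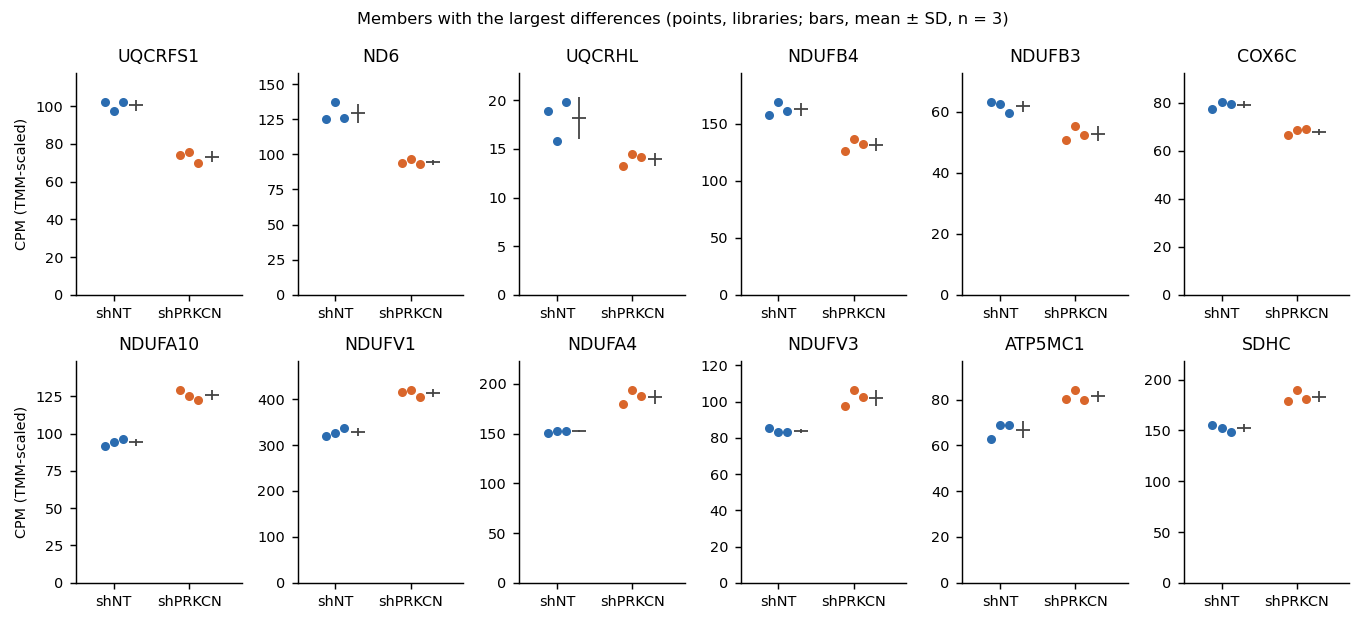
TMM-scaled CPM (vertical axes, each from 0) of 12 members in the 3 shNT and 3 shPRKCN libraries (points), with the mean and SD beside them. The upper row holds 6 genes whose shPRKCN values all lie below the shNT values, among them UQCRFS1 and ND6, and the lower row 6 genes whose values all lie above, among them NDUFA10 and NDUFV1.

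Of the 30 nuclear members that passed by the adjusted p, 21 also passed whichever library was left out, among them every gene with an absolute log2 fold change above 0.15. The other 9 lay near the threshold. ATP5MC3 did not pass without shNT 1 (0.09) or shPRKCN 2 (0.05), CYC1 without shNT 1 (0.10) or shNT 2 (0.11), and UQCRB without shNT 1 (−0.09) or shPRKCN 3 (−0.10). NDUFV2 did not pass without shNT 3 (−0.07) or shPRKCN 1 (−0.09), and NDUFB8 without shNT 2 (−0.11), shPRKCN 1 (−0.08) or shPRKCN 3 (−0.11). COX5A was lost without shNT 1 (0.10), shNT 2 (0.07) or shPRKCN 1 (0.09), and COX6A1 without shNT 1 (0.08), shNT 3 (0.10) or shPRKCN 2 (0.07). NDUFC1 and SDHB held only without shNT 3 or shPRKCN 1 and without shPRKCN 1, respectively, with log2 fold changes of 0.11 to 0.15 and 0.08 to 0.12 where they were lost. In the other direction, ATP5F1B and COX4I1, which did not pass, did so under 6 and 8 of the alternatives, among them DESeq2 (0.07 and 0.08), library-size scaling (0.09 and 0.10) and the omission of shNT 3 (0.08 and 0.10).

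Summed over each complex per gene length, the opposite signs partly cancelled. TMM-scaled CPM per kb over the nuclear genes of complex III totalled 1069 to 1123 in shNT and 1001 to 1059 in shPRKCN libraries, without overlap. The sums were higher without overlap in shPRKCN libraries for complex II (235 to 238 against 245 to 255) and complex V (2467 to 2553 against 2573 to 2722). They overlapped for complex I (3305 to 3505 against 3357 to 3544) and complex IV (2002 to 2090 against 1944 to 2071). A sum is dominated by its most abundant genes and is given as a description, with no test.

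The mitochondrial genome supplies the remaining core subunits. All 13 of its mRNAs were tested. By the adjusted p, ND2, ND3, COX3, ATP8 and CYTB were higher in shPRKCN cells, ND5 and ND6 were lower, and 6 did not pass. The largest differences in the higher direction were those of ND3 (0.16, SE 0.031), which was at 2700, 2658 and 2665 CPM in shNT and 2874, 3078 and 3033 CPM in shPRKCN libraries, and of ND2 (0.16, SE 0.031). ATP8 (0.15, SE 0.036), CYTB (0.14, SE 0.031) and COX3 (0.09, SE 0.030) followed. The groups did not overlap for any of these 5 genes. Such a lack of overlap, with shPRKCN above, held for 29% of all genes tested. It adds no support, since the 5 were picked by the adjusted p on the same libraries. Passing depended on the test. Over all listed genes, limma on log2(FPKM + 1) passed 1 mitochondrial gene as higher and limma on log2(FPKM + 0.1) passed 0. With a minimum FPKM of 1 in 3 libraries, limma on log2(FPKM + 1) passed all 5. DESeq2 did not pass ATP8 (0.15, adjusted p = 0.0597).

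ND6 had the lowest level and the largest decrease of the 13 mRNAs. It is the only protein gene on the light strand of mitochondrial DNA, at positions 14149 to 14673, and encodes a membrane subunit of complex I. Its counts were 4416, 5041 and 4699 in shNT and 3500, 3586 and 3533 in shPRKCN libraries. At 244 ± 13.4 FPKM in shNT and 181 ± 1.55 FPKM in shPRKCN cells (SD, n = 3), it was the least abundant of the mitochondrial mRNAs. Its log2 fold change was −0.45 (SE 0.041, Benjamini-Hochberg adjusted p = 2.5e-15, edgeR quasi-likelihood), so that it fell by 27.0%, and leaving out any 1 library kept the log2 fold change between −0.48 and −0.40. ND5, its neighbour encoded on the opposite strand, had a log2 fold change of −0.12 (SE 0.033) with overlapping groups, and ND5 did not pass without shPRKCN replicate 3 (−0.08). The level of ND6 was 10.1% to 10.9% of that of ND5 in shNT libraries and 8.21% to 8.83% in shPRKCN libraries. Without knowledge of strand, reads from ND6 and from the transcript that runs antisense to it cannot be told apart.

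**Figure D4:**
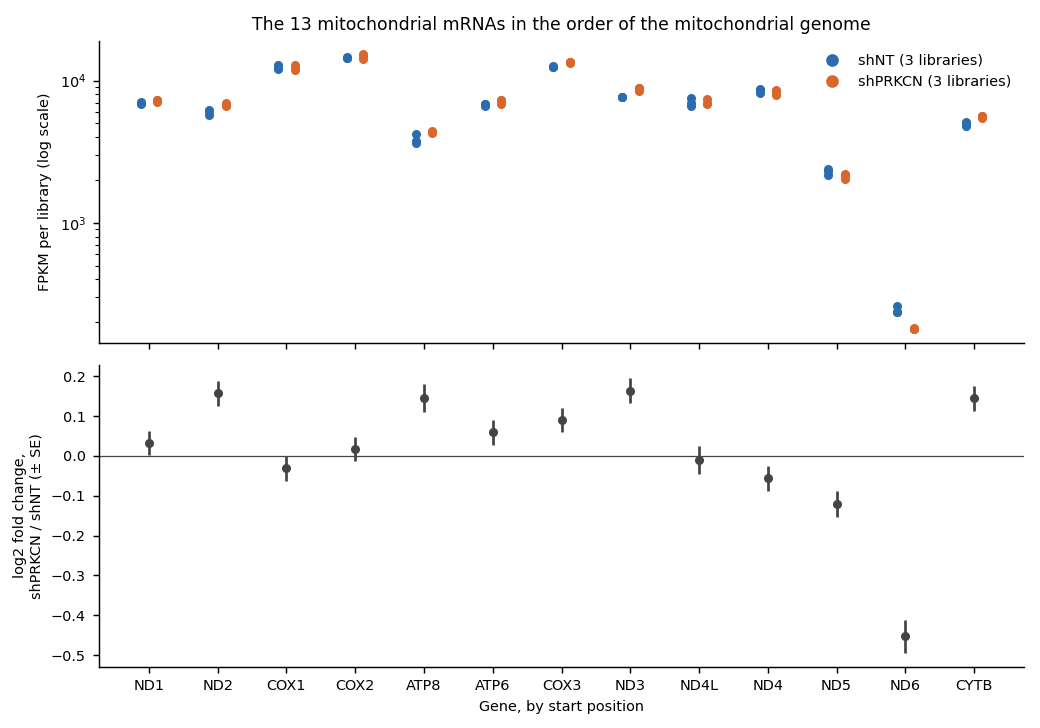
Upper panel, FPKM on a log axis of each of the 13 mitochondrial mRNAs in the 3 shNT (blue) and 3 shPRKCN (orange) libraries, in genome order. Lower panel, log2 fold change with its standard error, which is −0.45 for ND6 and between −0.12 and 0.16 for the other genes.

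The 6 mitochondrial genes that did not pass were ND1 (0.03), ND4 (−0.06), ND4L (−0.01), COX1 (−0.03), COX2 (0.02) and ATP6 (0.06), each with an SE of 0.035 or less on the log2 scale. ATP6 passed without shPRKCN 3 (0.10), with library-size scaling (0.08) and with a length trend removed (0.06), and ND4 without shNT 3 (−0.09) or shPRKCN 2 (−0.07). ATP8 and ATP6 share an mRNA and overlap by 46 bases, as ND4L and ND4 do by 7, so their counts are not independent of each other. In every library COX2, COX1 and COX3 were the 3 most abundant members per length, with mean FPKM in shNT cells of 14470, 12530 and 12500, above every nuclear gene of the chain.

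The 13 mRNAs together took 8.47%, 8.50% and 8.16% of all shNT counts and 8.80%, 8.78% and 8.37% of all shPRKCN counts, by library. The ranges overlapped, since the third shPRKCN library lay below 2 of the shNT libraries. Counting error was much smaller than this spread, with 95% Wilson intervals at most 0.0183 percentage points wide. Mitochondrial counts were 7.15 to 7.75 times the counts of the nuclear members in shNT and 7.19 to 7.67 times in shPRKCN libraries. No shift of balance between the genomes was therefore seen beyond the spread between libraries.

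Promoters are shown for 4 nuclear members, the strongest decrease and 3 increases. The 3 were picked, after values were seen, from the 5 members whose windows hold a cAMP response element, so they are not the 3 largest increases, and SDHB (0.11) passed only narrowly. The windows come from RefSeq on GRCh38.p14 and run from 250 bases before the start of a gene to 50 bases after it, read on the strand of the gene. Capitals mark matches to the searched letters on either strand: GCATGCGC (NRF1), CCGGAAG (ETS factors such as GABPA), AAGATGGC (YY1), TCAAGGTCA (estrogen-related receptors) and TGACGTCA (the cAMP response element). UQCRFS1 lies at chr19:29213102-29213401 on the minus strand, NDUFA10 at chr2:240025293-240025592 on the minus strand, ATP5MC1 at chr17:48892537-48892836 on the plus strand and SDHB at chr1:17053983-17054282 on the minus strand.
UQCRFS1: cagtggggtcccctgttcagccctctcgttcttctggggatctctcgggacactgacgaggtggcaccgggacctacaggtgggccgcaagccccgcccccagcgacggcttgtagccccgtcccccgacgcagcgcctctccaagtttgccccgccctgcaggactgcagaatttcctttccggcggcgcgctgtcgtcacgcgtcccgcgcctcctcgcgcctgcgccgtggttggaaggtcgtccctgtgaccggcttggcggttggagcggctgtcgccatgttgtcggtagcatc
NDUFA10: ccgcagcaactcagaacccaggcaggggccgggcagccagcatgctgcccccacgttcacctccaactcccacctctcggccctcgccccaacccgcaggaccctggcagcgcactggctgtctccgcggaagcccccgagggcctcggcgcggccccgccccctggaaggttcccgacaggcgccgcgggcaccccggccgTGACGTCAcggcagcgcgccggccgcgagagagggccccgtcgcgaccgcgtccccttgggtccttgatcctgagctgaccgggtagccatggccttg
ATP5MC1: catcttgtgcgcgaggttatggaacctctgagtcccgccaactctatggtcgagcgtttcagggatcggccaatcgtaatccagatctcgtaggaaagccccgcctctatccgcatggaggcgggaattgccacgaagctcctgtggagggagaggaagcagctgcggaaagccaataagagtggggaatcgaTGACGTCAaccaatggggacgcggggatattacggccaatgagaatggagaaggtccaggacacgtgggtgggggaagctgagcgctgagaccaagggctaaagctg
SDHB: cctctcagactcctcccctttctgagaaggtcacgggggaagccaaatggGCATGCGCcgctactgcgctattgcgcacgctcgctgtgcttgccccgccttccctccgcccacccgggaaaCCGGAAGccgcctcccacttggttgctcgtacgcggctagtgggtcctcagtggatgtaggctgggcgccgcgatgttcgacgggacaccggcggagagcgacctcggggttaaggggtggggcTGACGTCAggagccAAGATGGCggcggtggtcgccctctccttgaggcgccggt
The window of UQCRFS1 held none of these letter strings. Those of NDUFA10 and ATP5MC1 each held 1 cAMP response element and SDHB held 4 of the elements, with the YY1 string just past its start.

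Windows were found for 65 of the 82 nuclear members (78 windows). NRF1 letters were in 19.2% of them, against 3.05% of all 35116 windows and 3.74% of the 22199 windows of protein-coding genes. In the same order, ETS letters were in 28.2%, 10.3% and 12.8%, YY1 letters in 16.7%, 2.89% and 3.53%, estrogen-related receptor letters in 1.28%, 0.353% and 0.243%, and the cAMP response element in 6.41%, 1.85% and 2.26%. The 14 members with NRF1 letters had a median log2 fold change of 0.04, with 3 higher and 1 lower by the adjusted p. The 21 members with ETS letters had a median of 0.04, with 4 higher and 2 lower. For the 12 with YY1 letters the median was −0.03, with 2 higher and 1 lower. The 5 members with a cAMP response element were ATP5MC1, ATP5ME, NDUFA10, SDHB and NDUFB2. Of these, the first 4 were higher and NDUFB2 did not pass (0.03, SE 0.046). Among all 80 nuclear members tested, 20 were higher and 10 lower, and among all genes 26.5% and 27.8%. The motifs were chosen after values were seen, and a link between any motif and the fold changes was not tested. A match is a run of letters, not a site shown to be bound.

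Of 13 transcriptional regulators of respiratory genes, 1 was called higher and 1 lower, against 6.15% and 10.6% of all genes tested. PPARGC1A encodes PGC-1alpha, a coactivator that drives mitochondrial biogenesis, and it was at 21.6, 22.3 and 16.8 CPM in shNT and 7.04, 5.22 and 6.03 CPM in shPRKCN libraries. The log2 fold change was −1.73 (SE 0.103, Benjamini-Hochberg adjusted p = 8.5e-24, edgeR quasi-likelihood). Its relative PPARGC1B was called in the opposite direction, from 34.6, 37.5 and 37.4 CPM in shNT to 57.1, 57.8 and 54.3 CPM in shPRKCN libraries, a log2 fold change of 0.63 (SE 0.052). On log2(FPKM + 1), which compresses genes of low FPKM, limma gave −0.83 for PPARGC1A, still past both limits, and 0.50 for PPARGC1B, within the fold limit, so that the call of PPARGC1B was lost there. The third family member, PPRC1, had a log2 fold change of 0.32 (SE 0.046), and ESRRA, a nuclear receptor partner of these coactivators, of 0.48 (SE 0.050). The other regulators of the list moved less. GABPB2 (0.28), GABPB1 (0.14), MYC (0.12) and YY1 (0.11) were higher and CREB1 (−0.26) and GABPA (−0.13) lower by the adjusted p, while NRF1 (0.00, SE 0.070), SP1 (0.04, SE 0.038) and HIF1A (−0.02, SE 0.052) did not pass. GABPA did not pass in 8 of the alternatives, namely DESeq2 (−0.13), library-size scaling (−0.11), each limma fit (−0.11 or −0.10), and without shNT 1 (−0.12), shNT 2 (−0.08) or shPRKCN 2 (−0.10). GABPB1 did not pass without shNT 1, shPRKCN 1 or shPRKCN 2 (0.14 each), nor YY1 without shNT 2 (0.11) or shPRKCN 2 (0.09). In total 7 of 13 regulators were higher and 3 lower by the adjusted p.

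Factors that assemble the complexes were tested for 55 genes, of which 22 were higher and 8 lower by the adjusted p, with a median log2 fold change of 0.11. COA6, a copper-handling factor for complex IV, was the only one called, at 31.1, 32.5 and 32.3 CPM in shNT and 17.0, 18.2 and 18.8 CPM in shPRKCN libraries (log2 fold change −0.83, SE 0.066). The copper chaperone COX17 (−0.53, SE 0.051) and the complex IV factor CMC2 (−0.51, SE 0.079, or −0.30 with limma on log2(FPKM + 1)) were next. In the other direction, the highest were SDHAF4 (0.55, SE 0.168, and not past the test without shNT 3, at 0.35), the complex I factor NDUFAF2 (0.42, SE 0.078) and COX18 (0.40, SE 0.063).

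Genes that keep and express mitochondrial DNA had 19 of 32 higher and 1 lower, with a median of 0.14. HSD17B10, a subunit of mitochondrial RNase P that frees the mRNAs from the long precursor transcripts, was called higher. Its level was 37.4, 36.2 and 41.4 CPM in shNT and 72.7, 72.8 and 72.8 CPM in shPRKCN libraries, a log2 fold change of 0.92 (SE 0.051, Benjamini-Hochberg adjusted p = 1.3e-25, edgeR quasi-likelihood). The helicase gene TWNK (0.31, SE 0.050) and the topoisomerase gene TOP1MT (0.28, SE 0.053) were also higher. The single gene that was lower, GRSF1, encodes an RNA-binding protein of mitochondrial RNA granules (−0.14, SE 0.038). Of 78 mitochondrial ribosome genes, 28 were higher and 12 lower, with a median of 0.07. MRPL14 was called (0.66, SE 0.049), MRPL4 (0.57, SE 0.047) lay just inside the limit (0.56 to 0.59 over the alternatives, so past it in some) and MRPL24 followed (0.35, SE 0.047). The lowest were MRPL47 (−0.30), MRPL55 (−0.29) and MRPL42 (−0.25).

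Upstream of the chain, 8 of 23 TCA cycle and pyruvate dehydrogenase genes were higher and 4 lower, with a median of 0.05. PDK1, a kinase that switches pyruvate dehydrogenase off, fell from 526, 537 and 519 CPM in shNT to 223, 211 and 214 CPM in shPRKCN libraries, a log2 fold change of −1.29 (SE 0.035). PDK3 was also called lower (−0.72, SE 0.051), though not with limma on log2(FPKM + 1) (−0.54), whereas PDK2 was higher (0.41, SE 0.056) within the limit. OGDH, of the 2-oxoglutarate dehydrogenase complex, was called higher (0.59, SE 0.038), just past the limit and within it without shPRKCN 2 (0.56), and IDH3G had a log2 fold change of −0.32 (SE 0.052). Of 19 genes for electron carriers and coenzyme Q, 6 were higher and 3 lower and 0 were called, where the median was 0.09. Among those past the adjusted p, DHODH (0.52), COQ4 (0.42) and COQ8A (0.38) were the highest, and COQ10B (−0.33), SQOR (−0.18) and the cytochrome c gene CYCS (−0.14) were lower. Among 12 further genes of mitochondrial proteins, 5 were lower. The lowest were the ADP/ATP carrier gene SLC25A4 (−0.53, SE 0.047), the protease gene LONP1 (−0.52, SE 0.037) and MCUB (−0.51, SE 0.066). HIGD2A (0.34, SE 0.040) and the phosphate carrier gene SLC25A3 (0.10, SE 0.034) were the 2 that were higher, and the median was −0.08. Without shNT 3 (−0.14) or shPRKCN 3 (−0.13) SQOR did not pass, nor did SLC25A3 without shNT 2 (0.08) or shPRKCN 2 (0.08). These counts by the adjusted p are read beside the 26.5% higher and 27.8% lower of all genes given above. Counts of genes called are read beside the 6.15% called higher and 10.6% called lower.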

How the data were processed

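RNA of 3 shNT and 3 shPRKCN libraries was sequenced. The authors deposited raw counts per gene and FPKM, which can be computed from the counts, the library totals and 1 length per gene. The submitters' processing notes name FastQC, HISAT2, StringTie and GRCh38.p14. The annotation, the counting program and its strandedness are not given in the sources used here, and reads of overlapping or near-identical genes may therefore be assigned ambiguously. Gene lengths implied by FPKM set every level per length.

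Library sizes were scaled with TMM in edgeR 4.0.16 under R 4.3.3, filterByExpr left 13971 genes, and these were tested by quasi-likelihood, with Benjamini-Hochberg adjustment over all of them. The limits of 0.05 on the adjusted p and 0.58 on the log2 fold change are those of the study's methods. The standard error is the log2 fold change divided by the square root of F. The steps were tested on simulated data. The alternatives tried were DESeq2 1.42.0, scaling by RLE, by upper quartile or by library size only, removal of the mitochondrial mRNAs, no filter, at least 10 counts in every library, a replicate block, each library left out, removal of a length trend, and limma 3.58.1 on log2(FPKM + 1), with and without a minimum FPKM of 1 in 3 libraries, and on log2(FPKM + 0.1). Intervals of shares are Wilson intervals and cover counting error only. Python 3.11.15 was used for the summaries.

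The genes named are all mitochondrial members, the 3 lowest and 2 highest nuclear members past the adjusted p in each complex, the isoform sets, the 3 genes farthest in each direction of each related list, all regulators, and PRKD3, of which some are not reported here. Members and lists were chosen with earlier results of these data known. The subgroups of complexes I and V, the 4 promoters shown, the motifs and further genes named for their neighbours were chosen after values were seen.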

Additional observations from a re-analysis of the deposited data

How the results depend on the processing

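No mitochondrial member passed both limits under any alternative run, and no nuclear member did except under limma on log2(FPKM + 0.1), where 1 nuclear member, the barely detected NDUFA4L2, was called lower. The nuclear median log2 fold change stayed between 0.0071 and 0.0673 and the mitochondrial median between 0.0141 and 0.0638. By the adjusted p alone, nuclear members numbered 14 to 26 higher and 8 to 13 lower over the alternatives, and 21 of the 30 that passed did so in every one. ATP5MC3, COX5A, COX6A1, CYC1, NDUFB8, NDUFC1, NDUFV2, SDHB and UQCRB were the 9 lost in at least 1. The mitochondrial genes depended more on the fit. With limma over all listed genes, 1 was higher on log2(FPKM + 1) and 0 on log2(FPKM + 0.1). With the FPKM minimum, the genes higher in the main fit still passed. On each limma scale 1 (ND6) was lower, with or without the FPKM minimum. ND6 alone of the 7 passed in every alternative, and without shPRKCN replicate 3 it was the 1 gene lower, where leaving out single libraries gave 1 to 3. The cause was not tested.

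Replicate numbers did not pair the libraries, since deviations of same-numbered libraries correlated at −0.0419, −0.0133 and 0.0038. With the numbers as a replicate block, 26 of the 30 nuclear members and 7 of the 7 mitochondrial members still passed, with 16 nuclear members higher and 10 lower, and COX5A, COX6A1, NDUFC1 and SDHB no longer did.

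Some genes that did not pass also changed sign. ND4L was at 0.0082 with library-size scaling and 0.0091 with limma. Leaving out single libraries gave −0.0567 to 0.0426 for ND4L, −0.0709 to 0.0149 for ATP5MC2, −0.0525 to 0.0147 for COX1, −0.0118 to 0.0587 for COX2, −0.0488 to 0.0204 for HIF1A and −0.0491 to 0.0591 for NRF1 on the log2 scale. The share of counts with mitochondrial rRNA left out was not run, because no row carries those names. Depth limits COX4I2, COX6B2, NDUFA4L2 and ATP5F1E, and 3 libraries a group limit every spread.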
